A study of Mus musculus with 20 samples.

Results

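The C-type lectin receptors described here are 8 genes of mouse macrophages, Clec7a, Clec4n, Clec4e, Clec4d, Clec5a, Clec12a, Mrc1 and Clec10a, among 24342 gene symbols in the deposited count table. They were taken by symbol, with 1 RefSeq transcript per gene, the one with the highest total count. All 8 were counted well enough to enter the test, which was run on 12013 genes. Bone marrow of C57BL/6 mice was cultured for 7 to 8 days with 15% L929-conditioned medium, a source of the growth factor M-CSF, and the resulting macrophages were sequenced as polyadenylated RNA. SGC0946, an inhibitor of the histone H3K79 methyltransferase DOT1L, was present at 1 µM in 1 arm and its solvent DMSO in the other. Within each arm cells were given LPS, a bacterial Toll-like receptor ligand, at 10 ng/mL for 3 h, given GW3965, an agonist of the liver X receptors, at 2 µM for 17 h, or left unstimulated. The 6 groups were SGC0946+LPS and DMSO+LPS (3 libraries each), SGC0946+GW3965 and DMSO+GW3965 (3 each), and SGC0946 and DMSO without stimulus (4 each). The 20 libraries came from 4 mice, and a replicate number marks the same mouse in every group.

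C-type lectin receptors are membrane proteins of myeloid cells whose extracellular lectin-like domains recognise sugars and lipids of microbes or ligands from damaged cells. Clec7a (Dectin-1) binds fungal beta-glucan and signals through its own cytoplasmic tail to the kinase SYK. Clec4n (Dectin-2), Clec4e (Mincle) and Clec4d (MCL) signal to SYK through the adaptor chain encoded by Fcer1g, and Clec5a does so through the adaptor encoded by Tyrobp. Clec12a carries an inhibitory motif that recruits phosphatases, while Mrc1 (the mannose receptor) and Clec10a (a galactose-type lectin) are mainly endocytic and are widely used as markers of alternatively activated macrophages.

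By RefSeq coordinates (GRCm38.p6, the mm10 assembly) 6 of the 8 genes lie on chromosome 6. Clec4n (chr6:123229843-123247024, plus strand), Clec4d (chr6:123262107-123275268, plus) and Clec4e (chr6:123281789-123289871, minus) are neighbours, with 6521 bp between Clec4d and Clec4e and 15083 bp between Clec4n and Clec4d. Clec12a (chr6:129349783-129365303, plus) lies 96288 bp from Clec7a (chr6:129461591-129472785, minus), and Clec5a (chr6:40574898-40585805, minus) lies apart from both groups. Clec10a is at chr11:70166623-70170836 (plus) and Mrc1 at chr2:14229414-14332023 (plus). In the GENCODE annotation of the same assembly no exon of the 8 genes shared bases with an exon of another gene. RefSeq exons were not compared. By RefSeq coordinates the lncRNA gene Gm45969 (chr6:129459788-129501701) spans all of Clec7a, and Mir511 lies within Mrc1.

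RefSeq windows around the start site (250 bases before it and 50 after it) were at hand for 6 of the 8 members, without Clec4n and Clec10a. The bases before the annotated start are printed for Clec4e, Clec4d and Clec5a, because these genes rose most with LPS, and for Clec7a, because it changed most with SGC0946. Each reads 5′ to 3′ on the strand of its gene, and capitals mark matches to the motifs searched.
Clec4e (minus strand, chr6:123289872-123290121): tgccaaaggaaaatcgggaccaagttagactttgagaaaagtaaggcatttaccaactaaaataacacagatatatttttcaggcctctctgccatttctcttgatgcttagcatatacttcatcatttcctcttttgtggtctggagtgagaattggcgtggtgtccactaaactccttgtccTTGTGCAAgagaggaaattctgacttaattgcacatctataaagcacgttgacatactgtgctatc
Clec4d (plus strand, chr6:123261857-123262106): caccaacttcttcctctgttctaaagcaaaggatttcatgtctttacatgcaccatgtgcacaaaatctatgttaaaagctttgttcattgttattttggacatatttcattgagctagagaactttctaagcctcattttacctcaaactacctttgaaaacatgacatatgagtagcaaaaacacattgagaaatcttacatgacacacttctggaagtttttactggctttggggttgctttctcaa
Clec5a (minus strand, chr6:40585806-40586055): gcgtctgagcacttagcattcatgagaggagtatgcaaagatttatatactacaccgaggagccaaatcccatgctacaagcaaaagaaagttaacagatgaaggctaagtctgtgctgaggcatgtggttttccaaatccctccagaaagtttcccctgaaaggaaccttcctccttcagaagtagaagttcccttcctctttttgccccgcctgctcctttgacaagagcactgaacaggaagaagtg
Clec7a (minus strand, chr6:129472786-129473035): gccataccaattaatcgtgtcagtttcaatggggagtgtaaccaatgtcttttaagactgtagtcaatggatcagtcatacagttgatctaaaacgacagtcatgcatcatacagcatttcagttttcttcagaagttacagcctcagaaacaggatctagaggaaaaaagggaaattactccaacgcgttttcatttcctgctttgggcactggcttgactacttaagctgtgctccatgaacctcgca
The motifs were GGANNTTCC (NF-kB), TTGCNNAA (C/EBP), TGANTCA (AP-1), GAGGAAGT (PU.1) and GAAANNGAA (IRF), each read on both strands. The Clec4e window held 1 C/EBP match, TTGTGCAA, starting 66 bases before the start site. The Clec4d window held 1 IRF match on its opposite strand, TTCCTTTTC, which begins 1 base past the start site and so beyond the bases printed. The Clec12a window (chr6:129349994-129350293), which surrounds another RefSeq start site inside the gene model used here, held a C/EBP match (TTGCGCAA) and an AP-1 match (TGAATCA), and the Clec5a, Clec7a and Mrc1 windows held none of the 5 motifs. Among all 32851 windows of the same length 10.8% held the C/EBP motif, 8.56% the IRF, 7.81% the AP-1, 4.26% the NF-kB and 3.2% the PU.1 motif, and none of the motifs searched overlapped another in these windows.

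The libraries held 8.17 to 13.33 M counts over the genes used (median 10.4 M). All 9 macrophage markers examined passed the filter on low counts, and their summed level was 12265 to 20712 CPM across the 20 libraries. CPM are counts scaled to a common library total, here after TMM scaling, the edgeR factor that lines up the bulk of the genes between libraries. Markers of other cells were far lower, with summed levels of 0 to 1.09 CPM for 5 stromal markers and 0 to 0.335 CPM for 5 erythroid markers. The summed level was 9.91 to 22.8 CPM for 6 B cell markers, of which Pax5 was at 0, 8.47 to 55.0 CPM for 9 T and NK cell markers, and 5.59 to 29.8 CPM for 6 mast cell and basophil markers, of which Fcer1a and Tpsb2 were at 0. Sums of neutrophil, dendritic cell, B cell and T and NK cell markers lay apart between the arms, and their values stand beside the receptors below. The titles of 6 libraries (DMSO and DMSO+GW3965, replicates 1 to 3 of each) carry the word reanalyzed, whose meaning is not given, so that any effect of it cannot be told apart from that of SGC0946 in GW3965-treated cells and is separable only in part in unstimulated cells; no LPS library carries it.

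The first question was how SGC0946 changed the receptor genes. In unstimulated macrophages Clec7a and Clec10a rose with SGC0946, Clec4d fell, and the other 5 receptor genes did not pass the test (edgeR quasi-likelihood test, adjusted p under 0.05 over 12013 genes). Across all genes 4.55% were called higher and 4.18% lower in that comparison. After LPS only Clec7a was called among the 8, higher with SGC0946, where 3.86% of all genes were called higher and 3.26% lower. With GW3965 Clec7a was called higher and Clec4d lower, where the background was 2.24% higher and 1.4% lower. The median log2 fold change of the 8 genes was 0.02 unstimulated, -0.02 with LPS and -0.17 with GW3965, against -0.0045, -0.0045 and 0.00075 over all genes tested. With the mouse as a block, which pairs the libraries, 2 receptors were called after LPS in place of 1, as Clec10a was also called higher. Mrc1 was then also called lower in unstimulated cells (edgeR adjusted p = 0.0127) and with GW3965 (edgeR adjusted p = 0.0245). Over all genes 703 were called with GW3965 in place of 437.

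Clec7a, the beta-glucan receptor, had the largest fold change of the 8 with SGC0946 in unstimulated, LPS and GW3965 cells. Unstimulated cells had 323, 315, 350 and 412 CPM with SGC0946 and 187, 172, 184 and 168 CPM with DMSO (replicates 1 to 4). The groups did not overlap, and the log2 fold change was 0.98 ± 0.09 (SE, n = 4 and 4; edgeR adjusted p = 9.21e-07), or 1.97-fold. After LPS the levels were 168, 184 and 217 CPM with SGC0946 and 118, 97.5 and 113 CPM with DMSO, again without overlap (0.80 ± 0.11, n = 3 and 3; edgeR adjusted p = 0.000122). With GW3965 they were 296, 367 and 315 CPM with SGC0946 and 190, 167 and 166 CPM with DMSO (0.90 ± 0.11, n = 3 and 3; edgeR adjusted p = 3.66e-05). The gene was higher with SGC0946 in every mouse, 4 of 4 unstimulated, 3 of 3 after LPS and 3 of 3 with GW3965, by log2 ratios of 0.52 to 1.29. With the libraries titled reanalyzed left out, and 1 DMSO library remaining, the log2 fold change was 1.06 unstimulated (edgeR adjusted p = 0.00537) and 0.79 after LPS (adjusted p = 0.00118). In RNA from a whole culture, fewer or more cells of a type cannot be told apart from less or more RNA per cell.

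**Figure D1:**
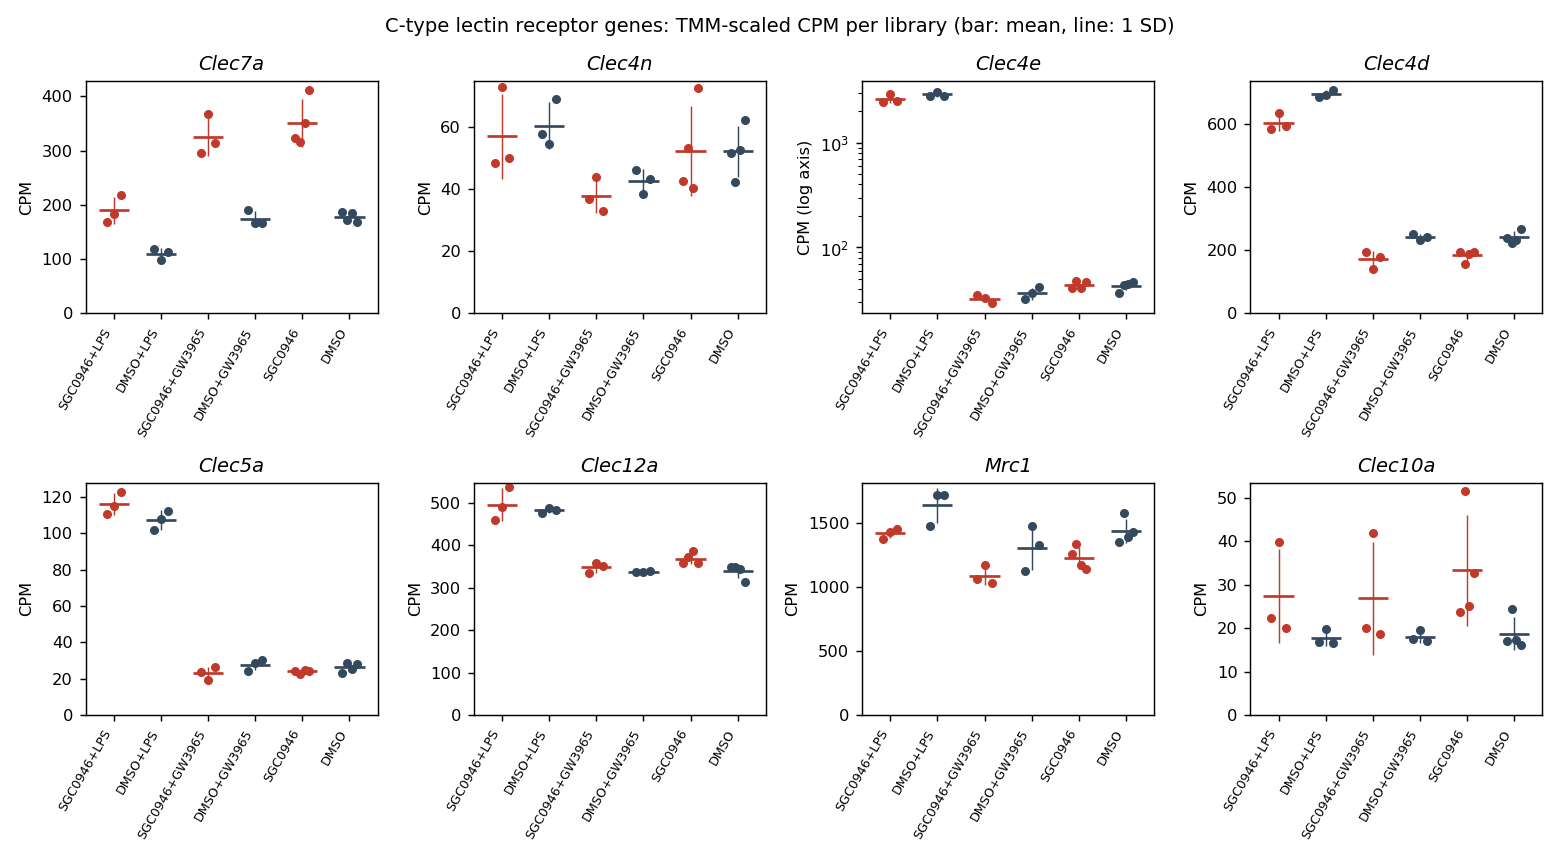
TMM-scaled CPM of each receptor gene in the 20 libraries (points), with the group mean (bar) and 1 SD (line), SGC0946 groups in red and DMSO groups in dark blue; the Clec4e axis is logarithmic, the others start at 0. Clec7a sits between 315 and 412 CPM in unstimulated SGC0946 cells, all above the 168 to 187 CPM of DMSO cells, and Clec4e reaches 2445 to 3082 CPM in the 6 LPS libraries.

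Other marker levels moved with the inhibitor in the same libraries. The 10 dendritic cell markers, of which 6 passed the filter and none was at 0 in all libraries, summed to 80.0 to 109 CPM with SGC0946 and 48.4 to 49.6 CPM with DMSO in unstimulated cells. After LPS their sum was 74.3 to 104 CPM with SGC0946 and 43.7 to 50.9 CPM with DMSO, and with GW3965 it was 69.1 to 94.3 CPM with SGC0946 and 42.5 to 53.6 CPM with DMSO. Most of that sum was Cd24a (mean 65.8 CPM with SGC0946 and 33.0 CPM with DMSO, unstimulated) and Itgax (25.0 CPM with SGC0946 and 14.4 CPM with DMSO), and each of the other 8 averaged at most 1.01 CPM in either group, Dpp4 averaging 1.01 CPM with SGC0946 and 0.37 CPM with DMSO and Clec9a 0.75 CPM with SGC0946 and 0.55 CPM with DMSO. Of the 6 that passed the filter 3 were called higher with SGC0946 in unstimulated cells (Cd24a, Itgax and Dpp4). After LPS 1 of the 6 was called higher and with GW3965 1, and none was lower in any of the 3 conditions. Among all genes 4.55%, 3.86% and 2.24% were called higher unstimulated, after LPS and with GW3965. The 16 neutrophil markers, 8 of which passed the filter, moved the other way, with sums of 81.6 to 110.9 CPM with SGC0946 and 127.6 to 145.8 CPM with DMSO in unstimulated cells, 166.2 to 215.2 CPM with SGC0946 and 237.6 to 274.0 CPM with DMSO after LPS, and 55.3 to 75.9 CPM with SGC0946 and 98.4 to 116.3 CPM with DMSO under GW3965. Most of the unstimulated sum was Csf3r (mean 55.0 CPM with SGC0946 and 57.8 CPM with DMSO) and Mmp8 (31.1 CPM with SGC0946 and 33.0 CPM with DMSO). S100a9 averaged 1.26 CPM with SGC0946 and 11.8 CPM with DMSO there, and Ngp 0.84 CPM with SGC0946 and 8.87 CPM with DMSO. Of the 8 tested 5, 5 and 6 were called lower unstimulated, after LPS and with GW3965, and none higher. Among all genes 4.18%, 3.26% and 1.4% were called lower. The 6 B cell markers summed to 18.3 to 21 CPM with SGC0946 and 13.4 to 15.5 CPM with DMSO unstimulated, 14.9 to 16.4 CPM with SGC0946 and 9.91 to 12 CPM with DMSO after LPS, and 16.4 to 22.8 CPM with SGC0946 and 12.5 to 13.7 CPM with DMSO under GW3965. Only 2 of these 6 passed the filter. Unstimulated, Cd22 averaged 14.7 CPM with SGC0946 and 10.2 CPM with DMSO, and Cd79b 5.02 CPM with SGC0946 and 4.33 CPM with DMSO. The 9 T and NK cell markers summed to 13.9 to 18.8 CPM with SGC0946 and 8.47 to 12.8 CPM with DMSO unstimulated, 45.8 to 55.0 CPM with SGC0946 and 25.1 to 31.1 CPM with DMSO after LPS, and 16 to 19.4 CPM with SGC0946 and 8.84 to 11.2 CPM with DMSO under GW3965. Only 2 of these 9, Cd4 and Lck, passed the filter. Unstimulated, Cd4 was called higher with SGC0946, while Lck was scarce, with a lower mean but overlapping ranges, and was not called. Cd4 averaged 15.2 CPM with SGC0946 and 9.11 CPM with DMSO there, and Lck 0.26 CPM with SGC0946 and 0.62 CPM with DMSO. After LPS Lck averaged 37.6 CPM with SGC0946 and 19.9 CPM with DMSO, and Cd4 13.4 CPM with SGC0946 and 7.17 CPM with DMSO. The part of any such cells in the receptor levels was not tested.

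Clec4d, the SYK-coupled receptor that pairs with Mincle, was lower with SGC0946. Unstimulated cells had 196, 156, 187 and 195 CPM with SGC0946 and 239, 223, 233 and 269 CPM with DMSO, with no overlap. The fold change was -0.39 ± 0.08 on the log2 scale (SE, n = 4 and 4; edgeR adjusted p = 0.00508). With GW3965 the levels were 193, 141 and 179 CPM with SGC0946 and 251, 232 and 243 CPM with DMSO (-0.50 ± 0.10, n = 3 and 3; edgeR adjusted p = 0.00446). After LPS they were 585, 636 and 593 CPM with SGC0946 and 686, 694 and 709 CPM with DMSO; the ranges were apart but the difference of -0.20 ± 0.10 did not pass (edgeR adjusted p = 0.224; -0.25 and 0.0487 with replicates 2 and 4 left out). Clec4d was lower with SGC0946 in every mouse of all 3 comparisons. With the reanalyzed libraries left out, which leaves 1 DMSO library that is assumed to vary like the other groups, the unstimulated difference was -0.55 and did not pass (edgeR adjusted p = 0.071).

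The genes beside Clec4d did not follow it in the calls. Clec4e, the Mincle gene, had 40.8, 47.7, 41.3 and 47.1 CPM with SGC0946 and 37.0, 43.9, 45.0 and 47.1 CPM with DMSO in unstimulated cells. The groups overlapped, and the 95% interval of the log2 fold change ran between -0.14 and 0.21. With GW3965 its difference was -0.17 ± 0.11 (edgeR adjusted p = 0.457) and after LPS -0.13 ± 0.09 (adjusted p = 0.455). Clec4n, the Dectin-2 gene, varied widely within groups, with 42.6, 53.2, 40.3 and 72.3 CPM in SGC0946 and 51.4, 42.1, 52.6 and 62.1 CPM in DMSO cells, and passed in none of the 3 comparisons, though after LPS it was called lower with replicates 2 and 4 left out (-0.37, edgeR adjusted p = 0.0427). Within mice 1, 2 and 3 the Clec4n log2 ratio of SGC0946 over DMSO after LPS was -0.26, 0.42 and -0.47. The call with replicates left out thus rests only on mice in which the gene was lower. Its 95% intervals for SGC0946 over DMSO ran from -0.30 to 0.32 unstimulated, -0.45 to 0.30 after LPS and -0.54 to 0.21 with GW3965. Differences within these intervals were not excluded, and the smallest difference that these libraries could detect was not computed.

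**Figure D2:**
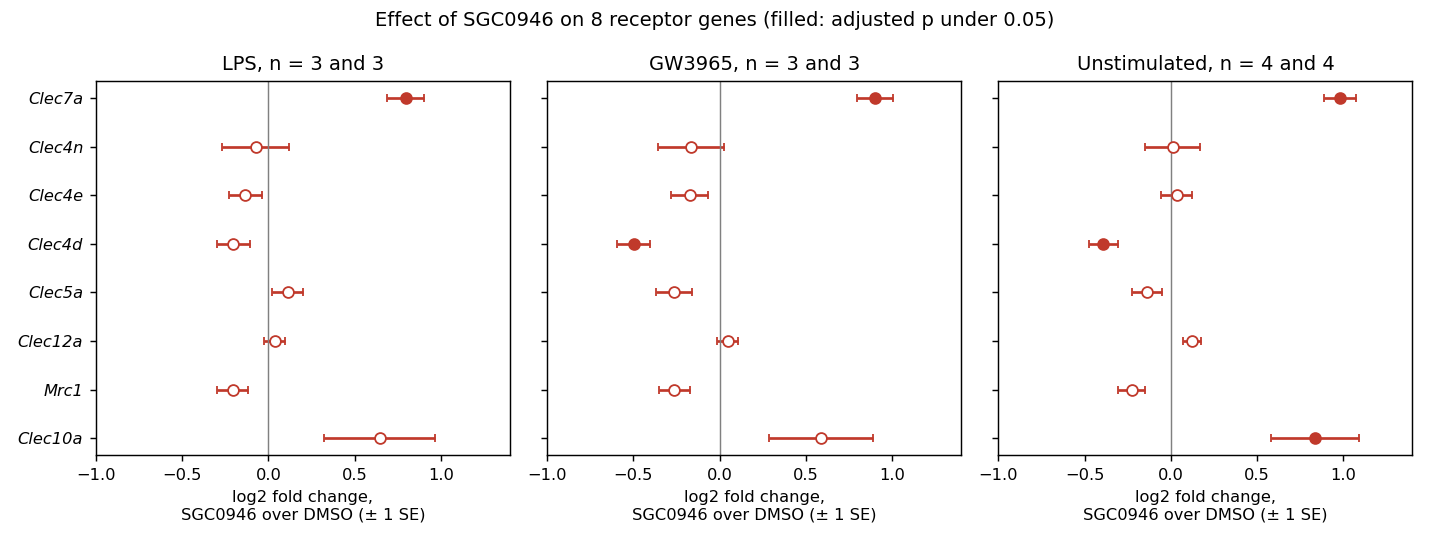
Log2 fold change of SGC0946 over DMSO for the 8 receptor genes after LPS, with GW3965 and unstimulated; points are edgeR estimates, bars 1 SE, and filled points have an adjusted p under 0.05. Clec7a lies at 0.80, 0.90 and 0.98 in the 3 panels, while Clec4d lies below 0 in each and passes with GW3965 and unstimulated.

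Clec5a, the Tyrobp-coupled receptor, was not called for SGC0946 in any condition. Its levels were 22.5 to 24.9 CPM with SGC0946 and 23.2 to 28.4 CPM with DMSO unstimulated (-0.14 ± 0.09, edgeR adjusted p = 0.355). With GW3965 they were 23.6, 19.4 and 26.2 CPM with SGC0946 and 24.3, 28.7 and 30.2 CPM with DMSO, lower with SGC0946 in 3 of 3 mice but with overlapping ranges (-0.26 ± 0.10, edgeR adjusted p = 0.179). After LPS the difference was 0.11 ± 0.09 (adjusted p = 0.511).

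Clec12a, the inhibitory receptor, had 357, 372, 386 and 359 CPM with SGC0946 and 349, 349, 343 and 314 CPM with DMSO in unstimulated cells. The ranges were apart and the gene was higher with SGC0946 in 4 of 4 mice, yet the difference was small and did not pass (0.12 ± 0.05, edgeR adjusted p = 0.154). DMSO replicate 4, at 314 CPM, lay below the other 3 DMSO libraries. The differences after LPS and with GW3965 were 0.04 ± 0.06 and 0.05 ± 0.06 (edgeR adjusted p = 0.791 and 0.774), with 95% intervals of -0.08 to 0.15 and -0.07 to 0.16.

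Mrc1, the mannose receptor and the most abundant of the 8, was lower with SGC0946 in every mouse without passing the main test. Unstimulated cells had 1252, 1336, 1173 and 1136 CPM with SGC0946 and 1351, 1571, 1389 and 1428 CPM with DMSO, ranges that did not overlap. The fold change was -0.23 ± 0.08 (n = 4 and 4; edgeR adjusted p = 0.0719), and it passed with the mouse as a block (-0.23, edgeR adjusted p = 0.0127) and in a fit of these groups alone (-0.22, adjusted p = 0.0437). With GW3965 the levels were 1060, 1171 and 1030 CPM with SGC0946 and 1120, 1472 and 1323 CPM with DMSO (-0.26 ± 0.09, edgeR adjusted p = 0.118; 0.0245 with the mouse as a block). Without DMSO+GW3965 replicate 1 that difference was -0.36 and passed (edgeR adjusted p = 0.0336). After LPS they were 1373, 1430 and 1451 CPM with SGC0946 and 1475, 1717 and 1711 CPM with DMSO (-0.21 ± 0.09, edgeR adjusted p = 0.186).

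Clec10a, the galactose-type lectin, was higher with SGC0946, and its coefficient of variation was the largest of the 8 in the 3 SGC0946 groups (38.6 to 48.3%) and in DMSO cells (20.5%), but not in DMSO+LPS or DMSO+GW3965 cells. Unstimulated cells had 23.6, 51.6, 25.2 and 32.8 CPM with SGC0946 and 17.1, 24.4, 17.2 and 16.1 CPM with DMSO. The ranges overlapped because mouse 2 was high in both arms, and mouse 2 gave the highest Clec10a level in 6 of 6 groups. The fold change of 0.83 ± 0.26 just passed (n = 4 and 4; edgeR adjusted p = 0.0449), and within each mouse the log2 ratio was 0.46, 1.08, 0.55 and 1.03. This call was kept with the mouse as a block. After LPS the levels were 22.5, 39.8 and 20.0 CPM with SGC0946 and 16.8, 19.7 and 16.5 CPM with DMSO (0.64 ± 0.32, edgeR adjusted p = 0.258; 0.0299 with the mouse as a block). With GW3965 they were 20.0, 41.8 and 18.7 CPM with SGC0946 and 17.4, 19.6 and 17.0 CPM with DMSO (0.59 ± 0.30, edgeR adjusted p = 0.351). Without SGC0946 replicate 2 the unstimulated difference was 0.54 (edgeR adjusted p = 0.227), and the call was also lost without SGC0946 replicate 4 (0.84, adjusted p = 0.0877) and without DMSO replicate 1, 3 or 4 (0.79, 0.80 and 0.77, adjusted p = 0.101, 0.107 and 0.126), with DESeq2 (0.85, adjusted p = 0.054), with counts summed over transcripts (0.83, adjusted p = 0.0581) and without the reanalyzed libraries (1.06, adjusted p = 0.391).

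**Figure D3:**
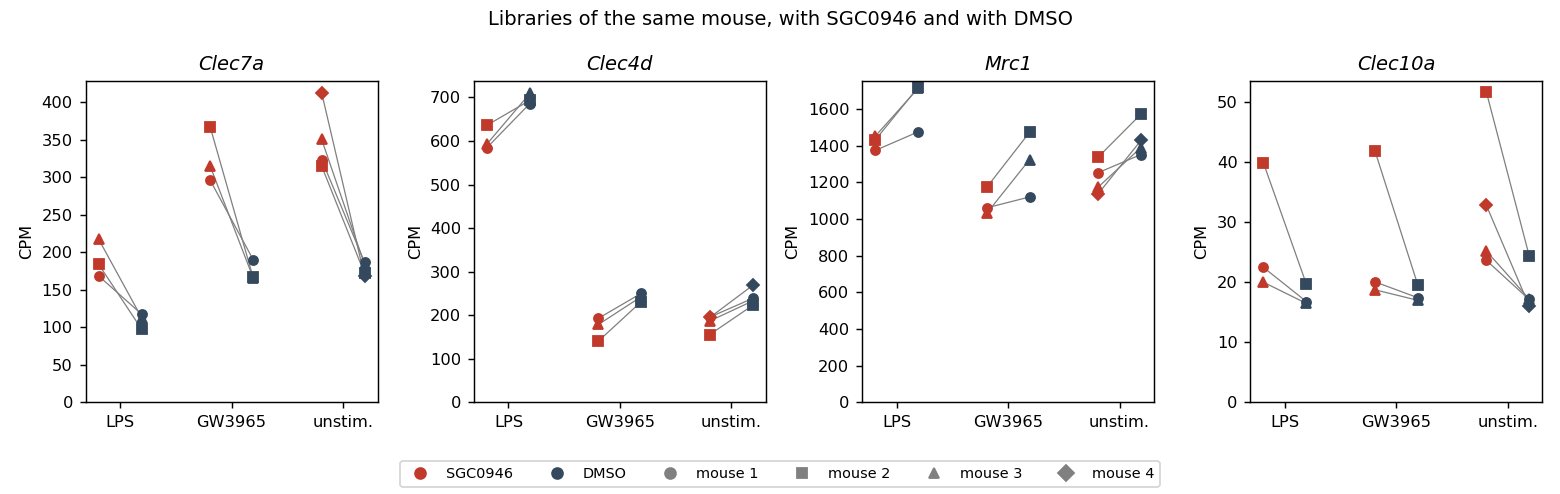
CPM of Clec7a, Clec4d, Mrc1 and Clec10a in libraries of the same mouse (grey lines) with SGC0946 (red, left of each pair) and DMSO (dark blue, right), after LPS, with GW3965 and unstimulated; marker shapes are the 4 mice and axes start at 0. Every Clec7a and Clec10a line falls towards DMSO and every Clec4d and Mrc1 line climbs towards DMSO, and mouse 2 (squares) has the highest Clec10a level throughout.

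The second question was how the receptors responded to LPS in each arm. With SGC0946, Clec4e, Clec5a, Clec4d, Clec12a and Mrc1 were called higher and Clec7a lower after LPS, and the same 6 genes were called in the same directions with DMSO. LPS moved most genes, 35.8% being called higher and 38.8% lower with SGC0946 and 35.4% higher and 38.7% lower with DMSO, so 6 called of 8 is near the share of all genes. The median fold change of the 8 was 0.32 with SGC0946 and 0.36 with DMSO, against -0.07 over all genes in both arms. LPS libraries had TMM factors of 0.686 to 0.716, against 1.14 to 1.19 in the others, and scaling by library totals alone would lower the median of all genes by 0.74 with SGC0946 and by 0.73 with DMSO. The values given are relative to the bulk of genes; with totals alone the increases of Clec12a and Mrc1 turn into decreases (-0.32 and -0.53 with SGC0946, -0.22 and -0.54 with DMSO), while Clec4e, Clec4d, Clec5a and Clec7a keep their direction and call in both arms.

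Clec4e carried the largest LPS response of the 8. With SGC0946 its level was 2445, 2928 and 2532 CPM after LPS and 40.8 to 47.7 CPM without it. With DMSO it was 2818, 3082 and 2773 CPM after LPS and 37.0 to 47.1 CPM without it. The log2 fold change was 5.89 ± 0.10 with SGC0946 and 6.06 ± 0.11 with DMSO, that is 59.5- and 66.8-fold (edgeR adjusted p = 1.35e-21 and 1.17e-21). Clec5a had 111, 115 and 123 CPM with SGC0946 and LPS against 22.5 to 24.9 CPM unstimulated (2.28 ± 0.09, 4.85-fold, edgeR adjusted p = 5.64e-16). In the DMSO arm Clec5a had 102, 108 and 112 CPM after LPS against 23.2 to 28.4 CPM unstimulated (2.02 ± 0.09, 4.07-fold, edgeR adjusted p = 3.83e-15). Clec4d had 585 to 636 CPM after LPS against 156 to 196 CPM unstimulated with SGC0946 (1.72 ± 0.09, 3.30-fold, edgeR adjusted p = 1.2e-13) and 686 to 709 CPM after LPS against 223 to 269 CPM unstimulated with DMSO (1.53 ± 0.09, 2.89-fold, adjusted p = 8.6e-13). None of these ranges overlapped.

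Clec7a moved against these 3. Its level was 168 to 217 CPM after LPS against 315 to 412 CPM unstimulated with SGC0946 (-0.89 ± 0.10, edgeR adjusted p = 6.38e-08), and 97.5 to 118 CPM after LPS against 168 to 187 CPM unstimulated with DMSO (-0.70 ± 0.10, edgeR adjusted p = 2.51e-06). Of the 3 SGC0946+LPS libraries 2 lay within the range of unstimulated DMSO cells and the third lay above it. Clec12a had 459 to 536 CPM after LPS against 357 to 386 CPM unstimulated with SGC0946 (0.42 ± 0.06, edgeR adjusted p = 5.81e-07) and 476 to 488 CPM after LPS against 314 to 349 CPM unstimulated with DMSO (0.51 ± 0.06, adjusted p = 3.51e-08), on the TMM scale only, as given above.

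The LPS calls of the remaining genes were weak. Mrc1 differed by 0.21 ± 0.08 with SGC0946 (edgeR adjusted p = 0.0278) and by 0.19 ± 0.08 with DMSO (adjusted p = 0.0488), both reversed under totals alone. The Mrc1 call was lost in the SGC0946 arm without SGC0946 replicate 3 or 4 or SGC0946+LPS replicate 2 or 3 (edgeR adjusted p = 0.0636, 0.0816, 0.061 and 0.0758), and in the DMSO arm without DMSO replicate 1, 3 or 4 or DMSO+LPS replicate 2 or 3 (adjusted p = 0.118, 0.1, 0.077, 0.17 and 0.159). It was also lost without the filter on low counts (adjusted p = 0.0684 with SGC0946 and 0.0906 with DMSO) and, with DMSO, under a stricter filter (0.0881) or without the reanalyzed libraries (0.161). Clec4n did not pass, with 48.2, 72.6 and 49.9 CPM after LPS with SGC0946 (0.13 ± 0.18, edgeR adjusted p = 0.531) and 57.7, 54.3 and 68.9 CPM with DMSO (0.21 ± 0.18, adjusted p = 0.288; 0.0307 with the mouse as a block). With replicates 2 and 4 left out Clec4n was called higher (0.24 with SGC0946 and 0.29 with DMSO, edgeR adjusted p = 0.0453 and 0.0138), and under totals alone it was lower (-0.62 with SGC0946 and -0.52 with DMSO). Clec10a did not pass either (-0.27 ± 0.28 with SGC0946 and -0.08 ± 0.30 with DMSO, edgeR adjusted p = 0.389 and 0.816), and under totals alone it was called lower (-1.02 with SGC0946 and -0.81 with DMSO).

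**Figure D4:**
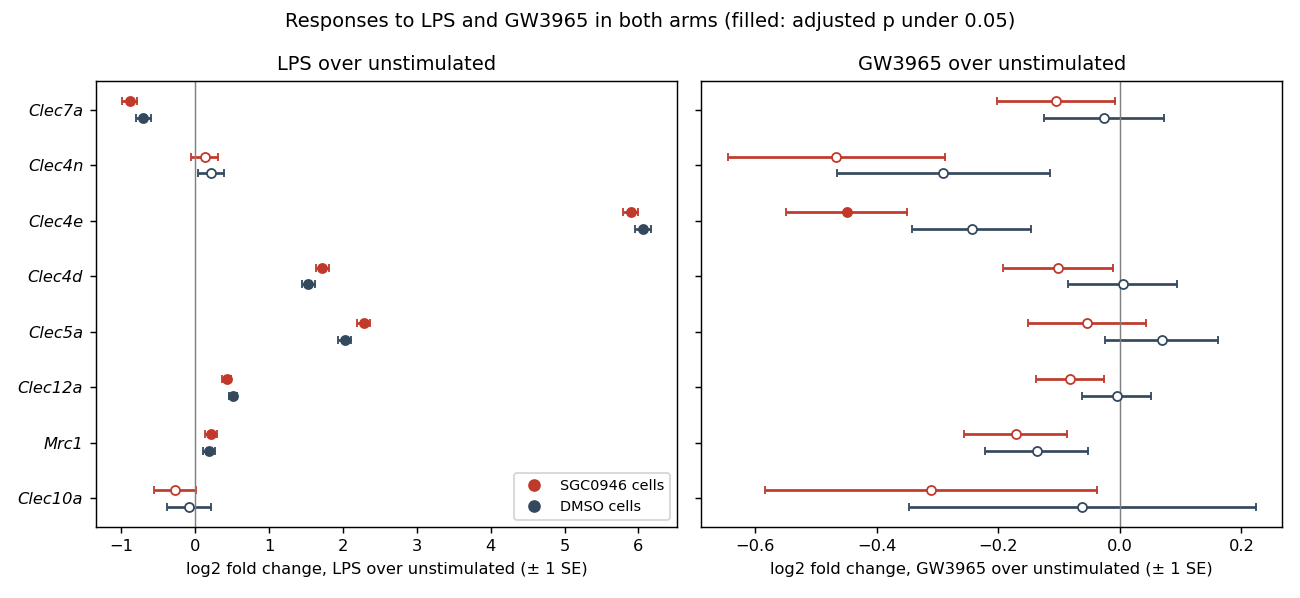
Log2 fold change over unstimulated cells after LPS (left) and with GW3965 (right) for the 8 receptor genes, in SGC0946 cells (red, upper of each pair) and DMSO cells (dark blue, lower); bars are 1 SE, filled points have an adjusted p under 0.05, and the panels have different scales. Clec4e stands at 5.89 and 6.06 after LPS, Clec7a lies below 0 in both arms, and the only filled point with GW3965 is Clec4e in SGC0946 cells (-0.45).

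The third question was whether SGC0946 changed the size of these responses. The difference of LPS responses, SGC0946 minus DMSO, passed for none of the 8 genes in edgeR or in DESeq2, and none had an unadjusted p under 0.05. Over all genes edgeR called 0.00832% higher and 0% lower, 835 genes had an unadjusted p under 0.05, and 37 genes passed in DESeq2; edgeR called 1 gene, and 6 with the mouse as a block. The estimate was -0.18 for Clec7a (95% interval -0.46 to 0.09), 0.19 for Clec4d (-0.06 to 0.44), -0.17 for Clec4e (-0.42 to 0.09) and 0.25 for Clec5a (0.01 to 0.50; unadjusted p = 0.0546 and adjusted p = 0.724 in edgeR). The Clec5a interval leaves out 0 although the test did not pass, because the intervals use the normal quantile and are somewhat too narrow. Clec10a had the widest interval, -0.997 to 0.62, and Mrc1 an interval of -0.21 to 0.26.

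GW3965 moved the receptors little. With SGC0946 Clec4e was the only one called, with 34.8, 32.7 and 29.7 CPM under GW3965 against 40.8, 47.7, 41.3 and 47.1 CPM unstimulated, ranges that did not overlap (-0.45 ± 0.10, edgeR adjusted p = 0.0159). Of all genes 1.32% were called higher and 1.11% lower in that comparison. The Clec4e call was lost without SGC0946 replicate 2 or 4 or SGC0946+GW3965 replicate 3 (-0.41, -0.42 and -0.39, edgeR adjusted p = 0.0567, 0.0597 and 0.096), without replicates 2 and 4 (-0.34, adjusted p = 0.194) and in a fit of these groups alone (-0.45, adjusted p = 0.0608). With DMSO no receptor was called in edgeR or DESeq2, where 1.35% of all genes were called higher and 1.2% lower in edgeR (306 in all, and 531 with the mouse as a block), and 1 of the 8, Clec4e, had an unadjusted p under 0.05. Clec4e had 31.9, 36.4 and 41.5 CPM with GW3965 against 37.0 to 47.1 CPM unstimulated there (-0.24 ± 0.10, edgeR adjusted p = 0.201). The difference of GW3965 responses was not called for any of the 8 or for any other gene (0% higher and 0% lower in edgeR, with 0 receptors and 291 genes at an unadjusted p under 0.05 and no gene in DESeq2); for Clec4e it was -0.21 (95% interval -0.48 to 0.07).

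The order of the 6 groups differed between the receptors. Clec7a was highest in SGC0946 and SGC0946+GW3965 cells (means 350 and 326 CPM, ranges overlapping) and lowest in DMSO+LPS cells (109 CPM), with SGC0946+LPS, DMSO and DMSO+GW3965 between (190, 178 and 174 CPM, neighbours overlapping). Clec4d ran from DMSO+LPS (696 CPM) over SGC0946+LPS (605 CPM) and DMSO+GW3965 and DMSO (242 and 241 CPM, overlapping) to SGC0946 and SGC0946+GW3965 (184 and 171 CPM, overlapping), and the ranges of the 3 other neighbouring pairs were apart. Clec4e, Clec5a and, on the TMM scale, Clec12a each had the LPS groups on top and 4 groups without LPS below, among which every neighbouring pair overlapped. For Clec4n, Mrc1 and Clec10a every neighbouring pair overlapped. By the deposited RPKM, which divide by transcript length and so allow genes to be set side by side, unstimulated DMSO cells had 275 RPKM of Mrc1, 183 of Clec4d, 155 of Clec12a, 79.1 of Clec7a, 42.5 of Clec4n, 17.4 of Clec4e, 12.7 of Clec10a and 6.98 of Clec5a (group means). In SGC0946+LPS cells Clec4e was first at 620 RPKM and in DMSO+LPS cells at 718 RPKM, above Clec4d at 269 RPKM in SGC0946+LPS and 327 RPKM in DMSO+LPS cells.

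Genes with the most similar pattern over the 6 group means were found by the root mean square difference of centred log2 CPM, among 12005 other genes. Closest to Clec7a were Tmc3 and Rasal1 (0.10 and 0.12), both near 1 CPM (mean log2 CPM 0.0045 and 0.0030). Closest to Clec4e were Ccrl2 and H2-M2 (0.13 and 0.16). Clec5a lay nearest to Tfec and Rbbp8 (0.04 and 0.06) and Clec4d to Reps1 and E2f8 (0.05 and 0.07). The nearest genes were Rp2 and Pias1 for Clec12a (both 0.02), Ptgr1 and Adam8 for Mrc1 (both 0.02), Smap2 and Pfkfb1 for Clec4n (0.04 and 0.05), and Ceacam16 and Il1rl2 for Clec10a (0.04 and 0.06). Among the 8 themselves Clec4n and Mrc1 were the nearest pair (0.11), and Clec4d and Clec5a differed by 0.27. By this measure genes that vary little between groups lie near one another. The group means were 5.24 to 5.91 log2 CPM for Clec4n and 10.1 to 10.7 for Mrc1.

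The genome around the receptors was examined within 250 kb, a span with 95 other annotated genes, of which 31 were tested. With SGC0946 in unstimulated cells 2 of the 31 rose and none fell, a share near that of all genes (4.55% higher and 4.18% lower). Clec1a, a lectin-like receptor gene 9591 bp from Clec7a, averaged 6.69 ± 1.99 CPM with SGC0946 and 2.68 ± 0.37 CPM with DMSO (SD, n = 4 each; log2 fold change 1.31 ± 0.26, edgeR adjusted p = 0.00303). Clec4a2, an inhibitory lectin gene 85844 bp from Clec4n, averaged 54.9 ± 6.7 CPM with SGC0946 and 38.1 ± 2.7 CPM with DMSO (0.53 ± 0.11, edgeR adjusted p = 0.00562). After LPS 3 rose and none fell, where 3.86% of all genes were called higher and 3.26% lower. All 3 lie within 250 kb of Clec7a and also of Clec12a, which was not called after LPS (0.04 ± 0.06, edgeR adjusted p = 0.791). Klrk1 averaged 29.3 ± 0.7 CPM with SGC0946 and 14.6 ± 3.6 CPM with DMSO (1.01 ± 0.17, edgeR adjusted p = 0.000636), and Olr1, 6365 bp from Clec7a, 15.7 ± 0.4 CPM with SGC0946 and 8.85 ± 2.04 CPM with DMSO (0.84 ± 0.20, adjusted p = 0.0182). Clec1a was scarce there, at 1.93 ± 0.68 CPM with SGC0946 and 0.47 ± 0.19 CPM with DMSO (2.09 ± 0.61, edgeR adjusted p = 0.0407). With GW3965 none of the 31 passed in edgeR, and Clec1a had 1.11 ± 0.31 (adjusted p = 0.0524). Clec12a and Gabarapl1, which lie 96288 and 60407 bp from Clec7a, had differences of 0.12 ± 0.05 and 0.0008 ± 0.0530 in unstimulated cells (edgeR adjusted p = 0.154 and 0.997).

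Of 38 other C-type lectin-like receptor genes 21 were tested. In unstimulated cells SGC0946 raised 3 (where 4.55% of all genes were called higher and 4.18% lower), Clec1a, Clec4a2 and the phospholipase receptor gene Pla2r1 (1.25 ± 0.39, edgeR adjusted p = 0.0496), and lowered 3, among them Clec2i (-0.86 ± 0.22, adjusted p = 0.0159) and the scavenger receptor gene Colec12 (-0.55 ± 0.16, adjusted p = 0.0395). After LPS 5 were higher with SGC0946, among them Klrk1, Olr1, Pla2r1 and Ly75 (0.97 ± 0.26, adjusted p = 0.0247), and 1 was lower, where 3.86% of all genes were called higher and 3.26% lower. With GW3965 none was higher and 1 was lower in edgeR, where 2.24% of all genes were called higher and 1.4% lower. The median over the 21 was 0.17, 0.43 and 0.21 in unstimulated, LPS and GW3965 cells, against -0.0045, -0.0045 and 0.00075 over all genes.

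A list of 23 genes, mostly of adaptors, kinases and phosphatases in the signalling of these receptors, was tested in full. It also held genes of other kinds, among them Tlr2, a Toll-like receptor gene, and Cd37. With SGC0946 in unstimulated cells Src rose (8.96 ± 1.36 CPM with SGC0946 and 4.94 ± 0.80 CPM with DMSO; 0.88 ± 0.14, edgeR adjusted p = 0.000293) and Fcer1g, the adaptor chain of Clec4n, Clec4e and Clec4d, fell by 0.16 ± 0.05 on the log2 scale (adjusted p = 0.0387), and none passed in edgeR after LPS or with GW3965. Among all genes 4.55% were called higher and 4.18% lower unstimulated. LPS raised 14 and lowered 5 of them with SGC0946 and raised 15 and lowered 4 with DMSO, where 35.8% of all genes were called higher and 38.8% lower with SGC0946 and 35.4% higher and 38.7% lower with DMSO. Malt1, a signalling protease downstream of Card9, rose by 4.97 ± 0.09 in both arms, and Card9 itself fell by 1.3 ± 0.13 with SGC0946 and by 1.31 ± 0.13 with DMSO. Tlr2 rose by 3.52 ± 0.11 with SGC0946 and by 3.56 ± 0.11 with DMSO, and the phosphatase gene Inpp5d fell by 2.35 ± 0.09 with SGC0946 and by 2.31 ± 0.09 with DMSO. GW3965 lowered Tlr2, the only one of the 23 to pass (-0.40 ± 0.10 with SGC0946 and -0.43 ± 0.10 with DMSO, edgeR adjusted p = 0.0435 and 0.0296). No adaptor, kinase or phosphatase gene of the list passed for GW3965. Among all genes 1.11% were called lower with SGC0946 and 1.2% with DMSO.

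Of 8 transcription factors of macrophage receptor genes SGC0946 raised Klf4 in unstimulated cells (0.41 ± 0.13, edgeR adjusted p = 0.043) and Irf4 and Irf8 after LPS (1.4 ± 0.26 and 0.22 ± 0.06, adjusted p = 0.00181 and 0.0429), with Irf4 at 2.92 ± 0.76 CPM with SGC0946 and 1.08 ± 0.22 CPM with DMSO. Among all genes 4.55% were called higher with SGC0946 unstimulated and 3.86% after LPS. LPS raised Irf8, Spi1 (PU.1), Cebpb and Klf4 and lowered Cebpa, Pparg and Irf4 in both arms. Among all genes LPS raised 35.8% and lowered 38.8% with SGC0946, and raised 35.4% and lowered 38.7% with DMSO. Of 14 cytokine and mediator genes induced through these receptors 12 were tested, and none passed in edgeR for SGC0946 in any of the 3 conditions. LPS raised 10 of the 12 in both arms, Tnf by 8.88 ± 0.17 with SGC0946 and by 8.53 ± 0.17 with DMSO, where the shares of all genes were those just given. It lowered 2 of the 12 with SGC0946 and 1 with DMSO.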

How the data were processed

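The authors deposited a table of read counts per RefSeq transcript and library, and a table of RPKM for the same 35745 transcripts. The submitters' processing notes name the mm10 build, STAR 2.5.2b as aligner and SAMtools 1.3.1, for single reads of 50 bases per the labels. Which program counted the reads, with what annotation and strand setting, is not given in the sources used here. Libraries were made with a KAPA mRNA HyperPrep kit from 700 ng of RNA, per the labels' protocols. The deposited RPKM equalled the counts divided by length and by 1 scale per library within a relative 0.001 for 780 of 780 transcripts with 2000 or more counts; that scale was 0.982 to 1.11 times the column total.

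Transcripts were joined to symbols of RefSeq GRCm38.p6. The 305 unnamed ones held 1.17% of counts and were left out. For 6035 symbols with several transcripts 1 was kept, that of the highest total count, as transcripts of a gene share reads; 24342 symbols with 57.3% of counts remained. edgeR 4.0.16 (R 4.3.3) fitted 1 mean per group over all 20 libraries, with TMM scaling, filterByExpr at a count minimum of 10, the quasi-likelihood F test and Benjamini-Hochberg adjustment over 12013 genes (threshold 0.05; biological coefficient of variation 8.87%). SE are the fold change over the root of F, and 95% intervals follow from them by the normal quantile. With so few libraries this makes the intervals somewhat narrower than the F test implies. Alternatives were library totals, RLE factors, no filter, a minimum of 50, summed transcripts, the mouse as a block, fewer libraries, fewer groups and DESeq2 1.42.0. The fit was tested on simulated counts. The mouse numbers of the titles and of the deposited sample sheet pair the libraries: deviations from group means correlated by over 0.1 in 19 of 22 same-mouse pairs (0.0608 to 0.501).

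The receptors, gene lists and tests were chosen with earlier results of these data known. Other genes are named by rule: those of a list that passed, up to 4 per direction by adjusted p, the 2 most alike per receptor, and neighbours that passed for SGC0946; values of Gabarapl1, Card9, Gm45969, Mir511, Cd24a, Itgax, Dpp4 and Clec9a were added after they were seen. A result among the other lectin-like genes is not reported here.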

Additional observations from a re-analysis of the deposited data

Results flagged for a closer look

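In 2 of 16 sets of 4 unstimulated libraries, 1 library of a receptor gene stood apart from the other 3 by Dixon's test at its 95% critical value; chance marks about 1 set in 20. Clec10a in DMSO cells was high in replicate 2 (24.4 CPM, against 16.1 to 17.2 CPM), with a gap of 0.864 of the range. Clec12a in DMSO cells was low in replicate 4 (314 CPM, against 343 to 349 CPM), with a gap of 0.846 of the range.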

How the results depend on the processing

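Of the receptor calls, 290 values over the alternatives kept their direction and side of the threshold, 27 lost significance and 4 reversed; of the uncalled, 969 stayed so, 12 passed and 2 reversed. All 6 reversals came from library totals in the LPS comparisons: Clec4n -0.52, Clec12a -0.22 and Mrc1 -0.54 with DMSO, and -0.62, -0.32 and -0.53 with SGC0946. The number of receptors highest in an LPS group was 6, and 3 under totals and 3 by RPKM.

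Receptors called for SGC0946 were 1 in place of 3 unstimulated without the reanalyzed libraries, and, after LPS, 2 in place of 1 with the replicate block and 3 without replicates 2 and 4. The 1 receptor called for GW3965 with SGC0946 became 0 without replicates 2 and 4 and 0 with only the groups compared. Leaving out 1 library at a time gave 2 to 3 receptors (SGC0946 unstimulated), 1 (LPS), 2 to 3 (GW3965), 5 to 6 for LPS in each arm, 0 to 1 for GW3965 with SGC0946, and 0 for GW3965 with DMSO and for both differences of responses.

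Counts over all genes moved more. For SGC0946 unstimulated 1048 became 235 without replicates 2 and 4, 103 without the reanalyzed libraries and 578 to 1099 with 1 library left out. For SGC0946 after LPS 856 became 529, 524 and 432 to 796. For SGC0946 with GW3965 437 became 703 with the block, 250 without replicates 2 and 4, 164 with only the groups compared and 232 to 454. For GW3965 with DMSO 306 became 531 with the block, 888 with only the groups compared, 520 in DESeq2 and 122 to 343. For GW3965 with SGC0946 291 became 178 without replicates 2 and 4, 147 without the reanalyzed libraries, 88 with only the groups compared and 134 to 485. For the difference of LPS responses 1 became 11 without a filter, 6 with the block, 37 in DESeq2 and 1 to 11. The causes were not tested. The replicate block changed no other receptor call than those of Mrc1, Clec10a and Clec4n given above. Counting limits Clec10a most, with 117 to 693 counts per library.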
